A study of Mus musculus with 9 samples.

Results

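Parm1, Ptgfr, Edn2, Snap25 and Prlr are genes that granulosa cells use around ovulation or as they turn into luteal cells. They were followed here in granulosa cells of the mouse, the somatic cells that line the follicle and nurse the oocyte. Members were every probe set whose single symbol in the platform annotation is one of these 5 genes. That gave 10 probe sets of 4 genes, of 45037 probe sets and 18193 genes in all: 5 for Ptgfr, 2 for Parm1, 2 for Snap25 and 1 for Edn2. Prlr, the prolactin receptor, has no probe set named for it here and is not analysed. The genes were picked with their values on all 9 arrays already known from an earlier look at the same data. Their levels and differences are therefore a description, and nothing is supported by them.

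The donors were immature mice (20 to 26 days) given equine chorionic gonadotrophin, which drives follicle growth, 48 h before collection. The cells attached overnight in medium with 1% fetal bovine serum and were then infected for 24 h without serum. Trial infections at a multiplicity of about 50 reached over 80% of cells, by the study's design text, as read from eGFP fluorescence. The adenoviruses carried WNT4, a secreted signalling protein (3 arrays), Cre recombinase, which recombines floxed alleles of the beta-catenin gene Ctnnb1 (3 arrays), or enhanced GFP, the control (3 arrays). The labels describe the mice as being of several genotypes and tie no genotype to an array, so which cells carried floxed alleles is not known here. Titles call the replicates biological without saying whether they came from separate animals or cultures. P-values then measure only the spread between these samples.

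In the ovary, luteal cells form from granulosa and theca cells after the surge of luteinizing hormone (LH). In rodents they are kept alive by prolactin acting through Prlr, and are brought to regress by prostaglandin F2 alpha acting through Ptgfr, a receptor coupled to Gq proteins. Edn2 encodes endothelin-2, a contractile peptide that granulosa cells of rats and mice make briefly around ovulation. Snap25 encodes a membrane protein of the SNARE machinery that fuses secretory vesicles in neurons, and in mice it has been described in granulosa and cumulus cells after the LH surge. Parm1 encodes a mucin-like transmembrane glycoprotein first found in rat prostate, and in rats it is induced in granulosa cells by the LH surge.

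The bases before the start sites of Parm1 and Ptgfr are shown because these were the members with probe sets above the limit used for dim signal, and because they varied over the arrays in different ways. The sequences are from RefSeq (GRCm38.p6), 250 bases upstream of the start, 5′ to 3′ on the gene's strand. They lie at chr5:91517450-91517699 on the plus strand for Parm1 and chr3:151837529-151837778 on the minus strand for Ptgfr. Capitals mark the letters CTTTG, a core that TCF/LEF partners of beta-catenin bind, which here lay on the opposite strand and so reads CAAAG.
Parm1: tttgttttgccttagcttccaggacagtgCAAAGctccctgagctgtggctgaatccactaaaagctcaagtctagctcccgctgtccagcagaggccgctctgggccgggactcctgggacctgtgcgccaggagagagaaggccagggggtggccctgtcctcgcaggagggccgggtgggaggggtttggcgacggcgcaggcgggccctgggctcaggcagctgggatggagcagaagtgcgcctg
Ptgfr: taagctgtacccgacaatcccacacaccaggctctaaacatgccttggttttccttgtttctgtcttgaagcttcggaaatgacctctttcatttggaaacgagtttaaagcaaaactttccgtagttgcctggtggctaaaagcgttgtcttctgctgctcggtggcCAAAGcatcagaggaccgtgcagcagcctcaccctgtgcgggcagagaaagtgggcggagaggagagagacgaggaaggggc
The Parm1 match began 221 bases and the Ptgfr match 82 bases before the start. The same letters, on either strand, occurred in 48.6% of 32851 promoter windows of this length. The letters AAGGTCA (bound by NR5A receptors, in 4.08% of windows), TTGCNNAA (C/EBP factors, 9.56%) and TGACG (part of the cAMP response element, 17.8%) were searched on both strands and are not in either window. The Parm1 window is rich in G and C (65.2%), and the Ptgfr window lies near the median of all windows (52.0% against 52.4%).

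Array values are log2 RMA values, which ran from 3.46 to 15.3, with array medians of 5.44 to 5.54. A probe set with a mean under 6 is called dim here, as 58.6% of all probe sets were. Of 10 member probe sets 6 lay above that limit, both of Parm1 and 4 of 5 of Ptgfr. With 3 arrays a group, array number limits precision. The targeted genes did not settle the labels: the brighter of the Wnt4 probe sets averaged 9.34 ± 0.48 on the arrays labelled WNT4, 10.63 ± 0.55 on those labelled Cre and 9.41 ± 0.45 with GFP (SD, n = 3 each). At the second Wnt4 probe set the means were 9.29 ± 0.82 for WNT4, 9.62 ± 0.51 for Cre and 8.32 ± 0.78 for GFP. Both probe sets thus had their highest mean on the arrays labelled Cre. Cre minus GFP was 1.23 ± 0.34 at the brighter and 1.30 ± 0.49 at the second, and WNT4 minus GFP was -0.07 ± 0.34 and 0.97 ± 0.49 (SE). Ctnnb1 differed by 0.04 ± 0.21, 0.20 ± 0.24 and 0.10 ± 0.23 (SE) between Cre and GFP at its 3 probe sets. Whether those probes lie in the viral transcript or the deleted part is unknown here, so groups are named by their labels. An exchange of the WNT4 and Cre labels was not tested, and the order of groups given below rests on the labels.

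Of the granulosa markers listed, 8 of 9 measured had a mean of at least 6, among them Inha, Foxl2 and Amhr2. Their mean level was 9.22 to 10.10 on the arrays labelled WNT4, 9.28 to 9.79 on those labelled Cre and 9.62 to 9.90 on GFP arrays. Single markers were less even: in WNT4 minus GFP 5 were higher and 4 lower. Esr2 differed by -1.25 ± 0.36, Foxl2 by -0.32 ± 0.11 and Nr5a1 by 0.38 ± 0.11 (SE). Cyp19a1 was listed but not analysed.

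**Figure D1:**
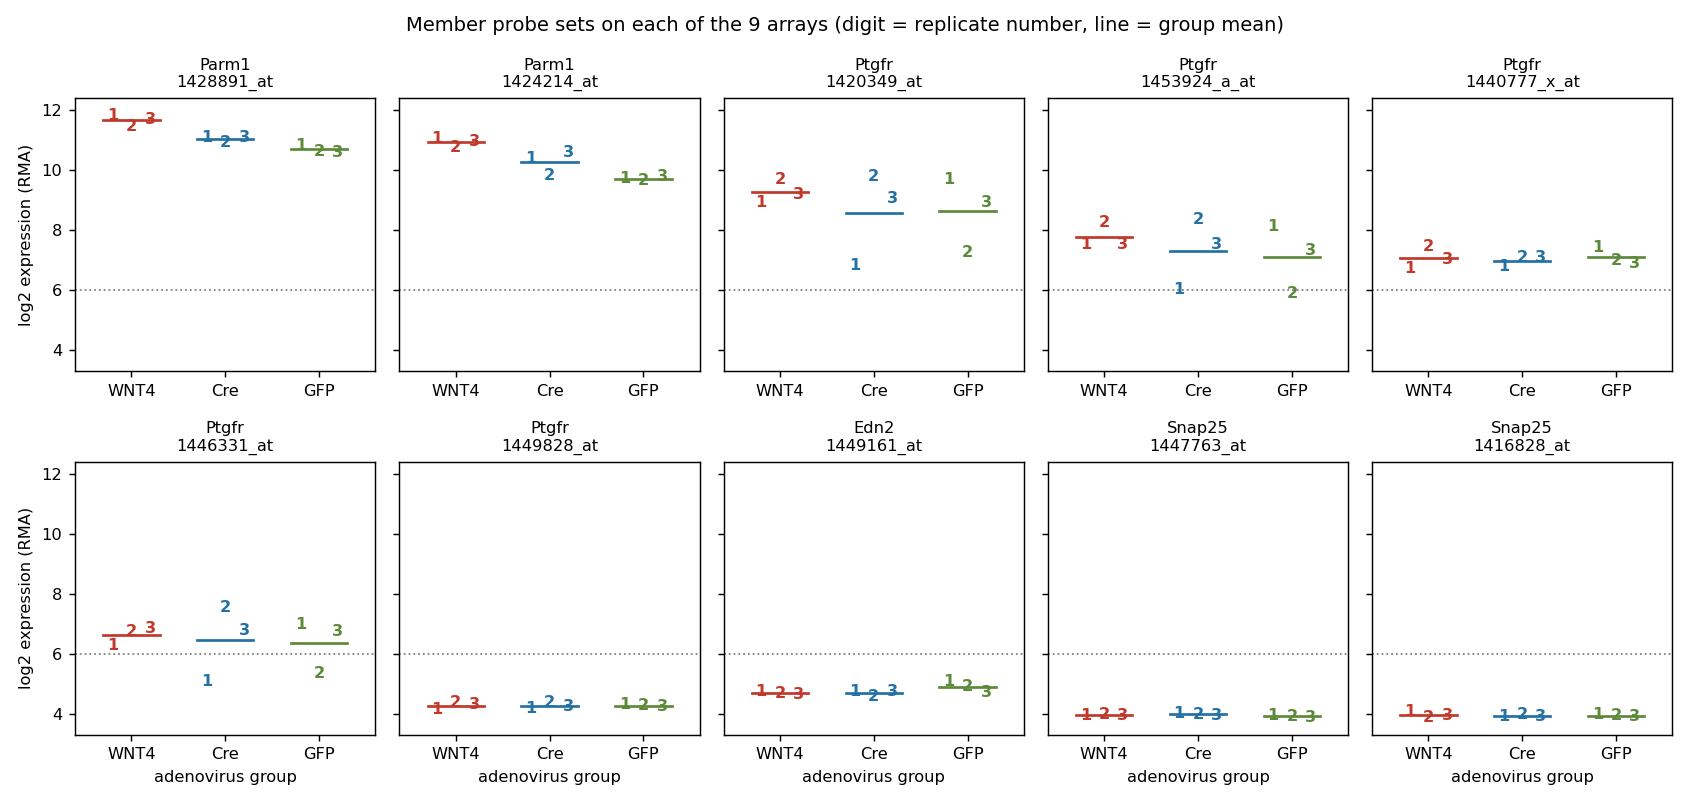
Log2 RMA value (vertical axis) of the 10 member probe sets on each array, by adenovirus group (WNT4, Cre, GFP). Digits are replicate numbers, solid lines group means and the dotted line the dim limit of 6. Both Parm1 probe sets separate the groups, 3 Ptgfr probe sets are low on Cre 1 and GFP 2, and Edn2 and Snap25 stay under the dim limit on every array.

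Parm1 was the member that separated the virus groups. Its brighter probe set, 1428891_at, read 11.83, 11.45 and 11.68 on the arrays labelled WNT4 (replicates 1, 2 and 3), 11.09, 10.93 and 11.08 on those labelled Cre, and 10.83, 10.63 and 10.59 on GFP arrays. All 3 WNT4 arrays lay above all Cre arrays, and all Cre arrays above all GFP arrays. Its other probe set, 1424214_at, read 11.06, 10.76 and 10.95 with WNT4, 10.39, 9.81 and 10.58 with Cre, and 9.70, 9.65 and 9.78 with GFP. The order was the same, although Cre 2 lay only just above GFP 3. This order without overlap, upward from GFP through Cre to WNT4, was found at 0.429% of all probe sets. Between WNT4 and GFP alone, groups did not overlap in the upward direction at 9.28%, between Cre and GFP at 2.98% and between WNT4 and Cre at 5.38%.

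In size, WNT4 exceeded GFP by 0.97 ± 0.12 at 1428891_at and by 1.22 ± 0.18 at 1424214_at (log2 ± SE, n = 3 arrays per group), which is 1.96-fold and 2.33-fold. The Cre arrays exceeded GFP by 0.35 ± 0.12 and 0.55 ± 0.18, or 1.28-fold and 1.47-fold. Both differences share the GFP arrays. Without them, WNT4 exceeded Cre by 0.62 ± 0.12 and 0.66 ± 0.18, or 1.54-fold and 1.59-fold. The pair of probe sets correlated at r = 0.94 over the 9 arrays, a description in which both share the same hybridisations.

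**Figure D2:**
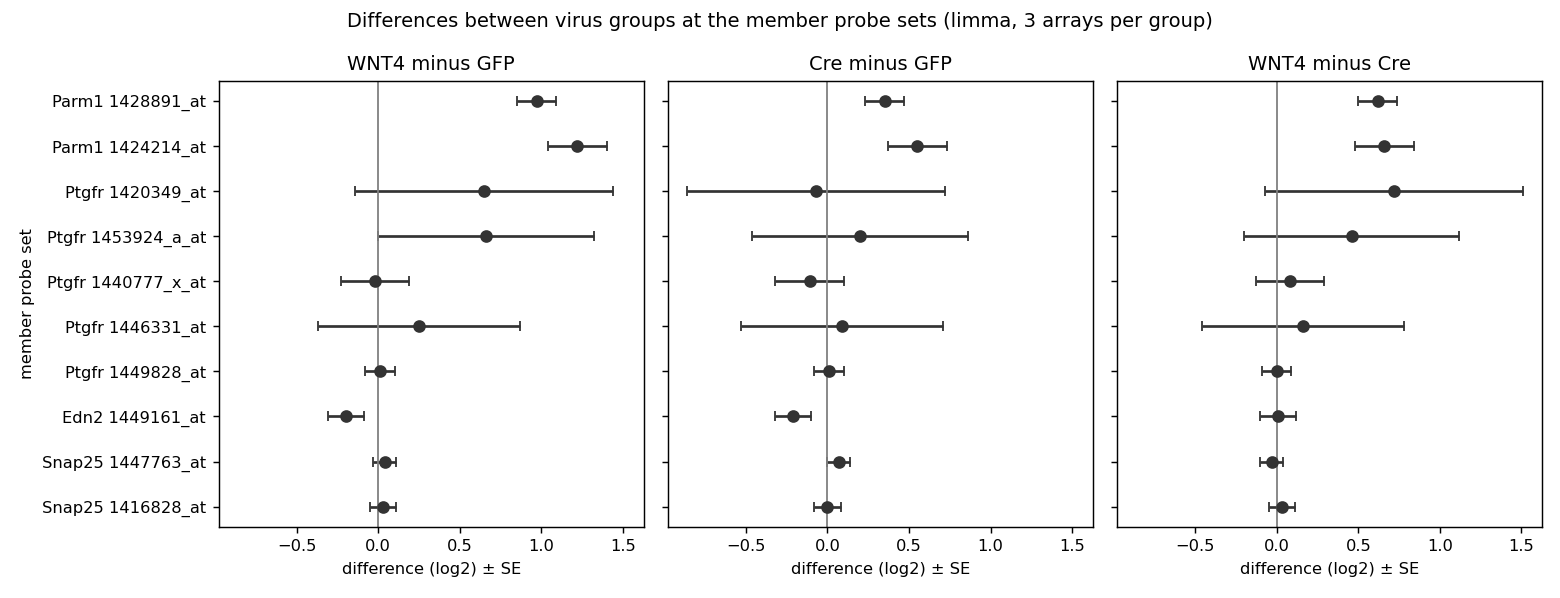
Difference in log2 value (horizontal axis, points, with bars of 1 SE from limma) at each member probe set for WNT4 minus GFP, Cre minus GFP and WNT4 minus Cre. The Parm1 probe sets lie at 0.97 and 1.22 in the WNT4 minus GFP panel, and the bars of the other 3 genes cross or lie near 0. They are wide at 3 of 5 Ptgfr probe sets and narrow at 1440777_x_at and 1449828_at.

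By limma over all 45037 probe sets, 0 of 10 member probe sets were called at an adjusted p under 0.05 in WNT4 against GFP, where 0.0155% of all were (7 probe sets). In Cre against GFP and in WNT4 against Cre 0 members were called, against 0% of all. At an unadjusted p under 0.05, both Parm1 probe sets and no other member passed in each comparison, where 13% of all probe sets did for WNT4 against GFP, 2.23% for Cre against GFP and 6.23% for WNT4 against Cre. The adjusted p of Parm1 in WNT4 against GFP was 0.0691 and 0.114 by limma.

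The Parm1 values moved with some settings. Without WNT4 2, the lowest WNT4 array at both probe sets, both were called (limma adjusted p of 0.0272 and 0.0399, differences of 1.07 and 1.30), in a fit that called 1.52% of all probe sets higher. The limma adjusted p of 1428891_at ran from 0.0272 to 0.365 over the 14 alternatives in which members were read. Members were not read in the fit of WNT4 and GFP arrays alone, which called 0 probe sets. Nor were they read in the fit without dim probe sets, which called 15, so whether Parm1 was among those is not known here. WNT4 stayed above both other groups with no overlap at both probe sets under quantile normalization and under median or 75th percentile centring. The share of all probe sets that did so under these scalings was not counted. The step from GFP to Cre was less firm, since these groups overlapped at both probe sets after quantile normalization and after 75th percentile centring. Quantile normalization lowered the difference at 1428891_at to 0.65 ± 0.11 for WNT4 minus GFP and to 0.36 for WNT4 minus Cre.

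**Figure D3:**
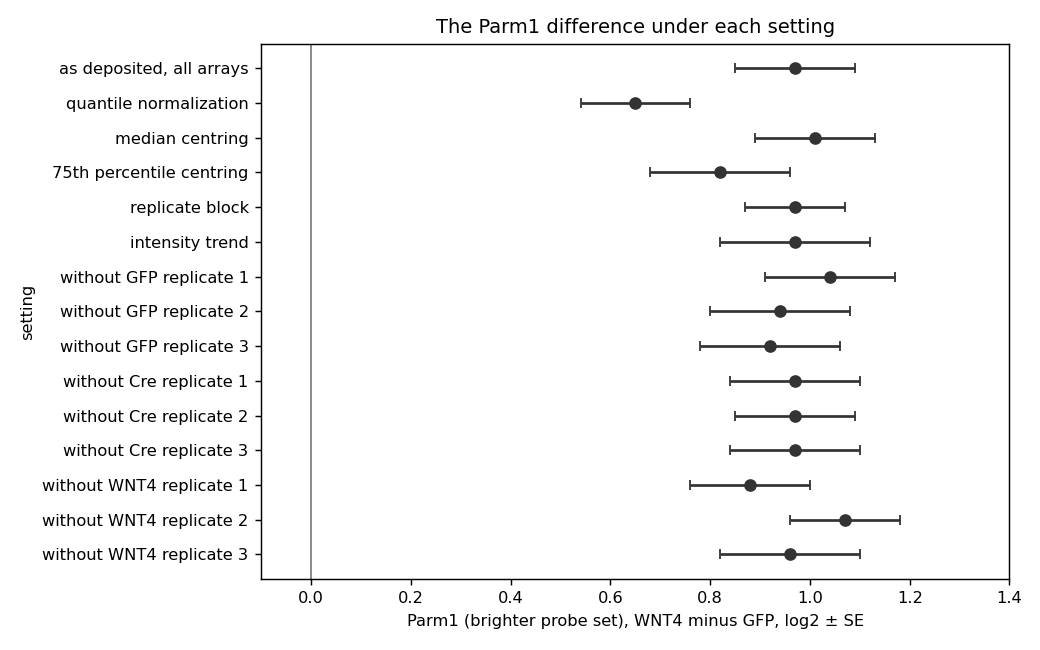
Difference of Parm1 (1428891_at) between WNT4 and GFP in log2 units (horizontal axis, with bars of 1 SE) under each setting on the vertical axis. It runs from 0.65 after quantile normalization to 1.07 without WNT4 2 and lies above 0 in each setting shown. The replicate block, the intensity trend and leaving out a Cre array can change the bar but not the point.

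Genes with a pattern over the arrays most like that of Parm1 were looked up among 10556 genes with a mean of at least 6. They were Tmbim6, a membrane protein of the endoplasmic reticulum that restrains cell death (r = 0.99), Polk, a polymerase that can copy damaged DNA (r = 0.98), and Tom1, an adaptor of endosomal sorting (r = 0.98, Pearson, n = 9 arrays). Tmbim6 read 11.43, 11.19 and 11.34 with WNT4, 11.06 on each Cre array, and 10.96, 10.92 and 10.88 with GFP. Like Parm1, it was lowest with GFP and highest with WNT4. After quantile normalization 0 of these 3 were among the nearest 3, which were Ak1, an adenylate kinase (r = 0.96), Cdkn1a, the cell cycle inhibitor p21 (r = 0.95), and Prkab1, a subunit of AMP-activated kinase (r = 0.95). All these points share arrays and scaling, so likeness this close is given as a description only.

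**Figure D4:**
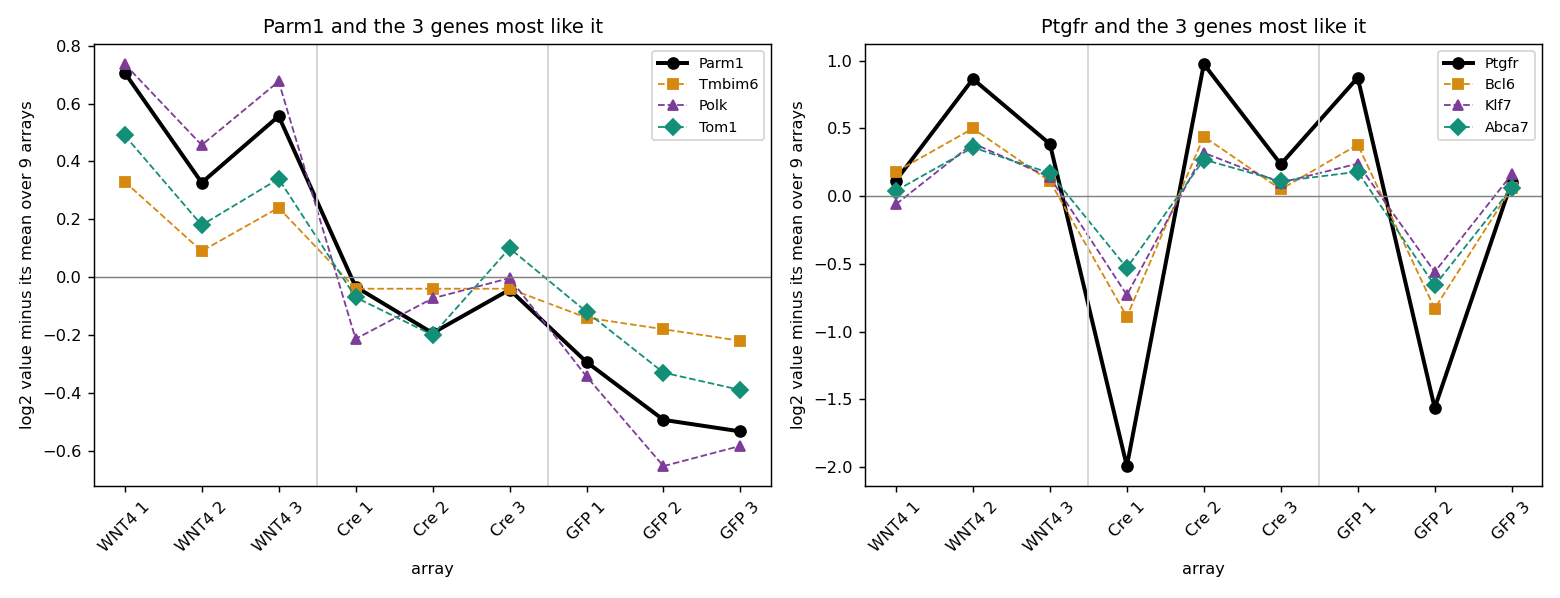
Log2 value minus the gene's mean over the 9 arrays (vertical axis) for Parm1 (left) and Ptgfr (right) with the 3 genes most like each, by array. The Parm1 set steps down through WNT4, Cre and GFP, whereas the Ptgfr set is low on Cre 1 and GFP 2.

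Ptgfr, the receptor for prostaglandin F2 alpha, varied within the groups far more than between them. Its brightest probe set, 1420349_at, read 8.93, 9.68 and 9.20 with WNT4, 6.82, 9.79 and 9.05 with Cre, and 9.69, 7.25 and 8.92 with GFP. Cre 1 and GFP 2 were low, the other 7 arrays lay within 1 unit of each other, and the groups overlapped. The probe set 1453924_a_at gave the same picture, at 7.51, 8.26 and 7.51 with WNT4, 6.02, 8.36 and 7.51 with Cre, and 8.12, 5.87 and 7.31 with GFP. So did 1446331_at, which read 6.28, 6.73 and 6.84 with WNT4, 5.06, 7.54 and 6.76 with Cre, and 6.98, 5.35 and 6.75 with GFP. In these 3 probe sets the highest of all arrays was Cre 2 and the lowest were Cre 1 or GFP 2. They correlated with each other at r = 0.93 to 0.98 over the 9 arrays.

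The remaining Ptgfr probe sets did not follow. The set 1440777_x_at stayed between 6.73 and 7.46 and correlated with 1420349_at at r = 0.58, and the dim set 1449828_at stayed between 4.13 and 4.37 (r = 0.55). Which of the 5 probe sets reads the receptor's transcript best cannot be told from these values. Pooled within groups, the SD was 1.17 at 1420349_at, a spread matched or exceeded by 0.45% of the 18658 probe sets that were not dim, the median SD among them being 0.24. For comparison the pooled SD of Parm1 was 0.14 at 1428891_at, and 84.9% of those probe sets were at least as variable. At 1424214_at it was 0.25, close to the median, with 45.5% at least as variable.

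With that spread the group means of Ptgfr could not be told apart. At 1420349_at WNT4 averaged 9.27 ± 0.38, Cre 8.55 ± 1.55 and GFP 8.62 ± 1.2 (SD, n = 3 each). WNT4 minus GFP was 0.65 ± 0.79 (SE), Cre minus GFP was -0.07 ± 0.79 and WNT4 minus Cre was 0.72 ± 0.79. Single arrays set these values: WNT4 minus GFP was -0.03 without GFP 2 and 1.19 without GFP 1, Cre minus GFP was -0.75 without GFP 2 and 0.80 without Cre 1, and WNT4 minus Cre was -0.15 without Cre 1 and 1.34 without Cre 2. At 1453924_a_at WNT4 minus GFP was 0.66 ± 0.66, with 0.05 without GFP 2 and 1.17 without GFP 1. In whole cultures such as these, fewer cells that express the receptor and less receptor RNA per cell cannot be told apart.

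The genes most like Ptgfr were Bcl6, a transcriptional repressor (r = 0.99), Klf7, a zinc finger transcription factor (r = 0.98), and Abca7, a lipid transporter (r = 0.97, Pearson, n = 9 arrays). Bcl6 read 10.31, 10.63 and 10.24 with WNT4, 9.24, 10.57 and 10.18 with Cre, and 10.51, 9.30 and 10.19 with GFP, again low on Cre 1 and GFP 2. After quantile normalization Bcl6 stayed among the nearest 3 (r = 0.98), beside Glul and Usp3. Parm1 and Ptgfr themselves correlated at r = 0.24.

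Edn2, the endothelin-2 gene, gave a dim signal on all arrays. It read 4.74, 4.69 and 4.65 with WNT4, 4.74, 4.57 and 4.74 with Cre, and 5.07, 4.92 and 4.70 with GFP. The highest values were on GFP 1 and GFP 2, and GFP 3 lay within the range of the other groups. WNT4 minus GFP was -0.20 ± 0.11 and Cre minus GFP -0.21 ± 0.11 (SE), and WNT4 and Cre differed by 0.01 ± 0.11. The first of these was -0.12 without GFP 1 and -0.30 without GFP 3. At this brightness the values do not show whether the transcript was present.

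Snap25 was dim as well and spread little. Its probe set 1447763_at lay between 3.88 and 4.02 and 1416828_at between 3.88 and 4.09 over the 9 arrays. WNT4 minus GFP was 0.04 ± 0.07 and 0.03 ± 0.08, and Cre minus GFP was 0.07 ± 0.07 and 0.00 ± 0.08. As deposited, the groups overlapped in each comparison at both probe sets. With other scalings some did not: at 1447763_at WNT4 and Cre lay above GFP after median centring and Cre above GFP after quantile normalization, and at 1416828_at WNT4 lay below Cre after 75th percentile centring. How many of all probe sets separated under these scalings was not counted. The pair of probe sets correlated at r = 0.11 over the 9 arrays. The listed markers of neurons and neuroendocrine cells had mean levels of 5.88 to 5.92 with WNT4, 5.85 to 6.02 with Cre and 5.92 to 6.13 with GFP, and those of endothelial cells 5.16 to 5.41, 5.07 to 5.23 and 5.12 to 5.30 in the same order.

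Genes of the members' pathways were read next, 1 probe set per gene. Prolactin signalling runs from the receptor through the kinase Jak2 to Stat5 factors. Of 16 measured genes 0 were called by limma in either comparison with GFP, 16 did not pass, and 4 had an unadjusted p under 0.05 in WNT4 against GFP (13% of all probe sets) and 2 in Cre against GFP (2.23% of all). The median difference was 0.18 for WNT4 minus GFP, against 0.02 over all genes, and 0.05 for Cre minus GFP, against -0.01. Without GFP 2 the WNT4 median was close to 0. Grb2, an adaptor that links receptors to Ras, differed by 0.67 ± 0.14 in WNT4 minus GFP, with its other probe set at -0.18. Stat5b differed by 0.53 ± 0.21, or 0.31 after quantile normalization. Ptpn11, the phosphatase SHP2, differed by 0.51 ± 0.16, or 0.16 after quantile normalization and 0.70 without WNT4 2 (limma adjusted p = 0.0403), and another of its 3 probe sets lay at 0.03. Hsd17b7, an enzyme also known as a prolactin receptor-associated protein in rat luteal cells, differed by -0.93 ± 0.36, with another of its 4 probe sets at 0.05. Akr1c18, the enzyme that inactivates progesterone as the corpus luteum regresses in rodents, differed by 1.03 ± 0.49 in Cre minus GFP. It read 10.39, 10.12 and 9.15 with Cre and 9.64, 8.04 and 8.89 with GFP, so the groups overlapped.

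Around Ptgfr, 27 genes of prostanoid synthesis, transport, receptors and Gq signalling were measured. By limma 0 were called in either comparison with GFP, and 6 had an unadjusted p under 0.05 in WNT4 against GFP, beside 13% of all probe sets, and 0 in Cre against GFP, beside 2.23%. The median was 0.10 in WNT4 minus GFP, or -0.09 after quantile normalization, and -0.08 in Cre minus GFP. Of the 4 receptors for prostaglandin E2, 3 were among the genes of the list with the smallest p-values in WNT4 against GFP, and they lay on both sides of 0. Ptger1, the fourth of them, differed by -0.04 ± 0.10. Ptger4 differed by 1.93 ± 0.47, reading 7.46, 6.98 and 8.62 with WNT4 and 5.51, 5.73 and 6.03 with GFP, without overlap. Its other probe set differed by 0.23. Ptger2 differed by -0.98 ± 0.30, reading 7.98, 7.98 and 8.71 with WNT4 and 8.68, 9.54 and 9.40 with GFP, and Ptger3, a dim probe set, by -1.02 ± 0.30. Ptgis, the prostacyclin synthase, differed by -0.48 ± 0.17. Gnaq, the G protein that couples Ptgfr to phospholipase C, differed by -0.02 ± 0.20 in WNT4 minus GFP and by -0.44 ± 0.20 in Cre minus GFP. Over its 7 probe sets these differences ran from -0.34 to 0.22 and from -0.44 to 0.15.

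In the endothelin system 0 of 7 measured genes were called by limma in either comparison with GFP. At an unadjusted p under 0.05 there were 0 in WNT4 against GFP (13% of all probe sets) and 0 in Cre against GFP (2.23% of all). With 7 genes such counts say little. Of the other ligands, Edn1 differed by 0.06 ± 0.20 (-0.09 after 75th percentile centring) and Edn3 by -0.21 ± 0.13 in WNT4 minus GFP. The receptor Ednrb, read from a dim probe set, differed by -0.16 ± 0.15, with another of its 3 probe sets at 0.22. The processing enzyme Ece1 differed by -0.06 ± 0.11. The receptor Ednra was listed but not analysed. The list's median was -0.06 in WNT4 minus GFP and -0.09 in Cre minus GFP.

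For the machinery around Snap25, 30 SNARE and exocytosis genes were measured and 0 were called by limma in either comparison with GFP. At an unadjusted p under 0.05 there were 7 in WNT4 against GFP (13% of all probe sets) and 2 in Cre against GFP (2.23% of all), and the medians were 0.07 (or -0.08 after quantile normalization) and -0.02. Sytl4, granuphilin, which docks secretory granules, differed by -1.29 ± 0.30 in WNT4 minus GFP. It read 10.0, 9.46 and 9.37 with WNT4, 10.59, 10.23 and 9.61 with Cre and 11.17 and 11.13 on GFP 2 and GFP 3, with 10.39 on GFP 1. Its other probe set differed by -0.14. Napg and Napa, adaptors that help take SNARE complexes apart, differed by 0.44 ± 0.14 and 0.39 ± 0.13, and the syntaxin Stx3 by 0.40 ± 0.15. After quantile normalization these were 0.22, 0.10 and 0.19, and other probe sets of Napg and Stx3 lay at -0.08 and -0.05.

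Edn2 and Snap25 belong to the genes of the LH surge and the progesterone receptor, of which 22 were measured. By limma 0 were called in either comparison with GFP, and 3 had an unadjusted p under 0.05 in WNT4 against GFP, a share near the 13% of all probe sets, and 0 in Cre against GFP (2.23% of all). Only 8 of the 22 had a mean of at least 6. Pgr, the progesterone receptor itself, was dim (mean 4.93) and differed by 0.07 ± 0.11 in WNT4 minus GFP. Adamts1, a matrix protease of ovulation, differed by 1.24 ± 0.31, reading 10.66, 10.44 and 11.09 with WNT4 and 9.75, 9.11 and 9.61 with GFP without overlap. Pparg, a nuclear receptor that acts downstream of the progesterone receptor in ovulation, differed by -0.53 ± 0.18.

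Luteal genes, the list that holds Parm1 and Ptgfr, were read last. Of 16 measured genes 1 rose in WNT4 against GFP by limma, where 0.0133% of all probe sets were called higher, and 15 did not pass. In Cre against GFP 0 were called, and an unadjusted p under 0.05 was found for 9 genes in WNT4 against GFP (13% of all probe sets) and 4 in Cre against GFP (2.23% of all). The one that rose was Cdkn1a, which differed by 1.55 ± 0.16 (limma adjusted p = 0.0341, from 0.0272 to 0.269 over 14 alternatives fitted for it). That call was lost with the replicate number as a block (limma adjusted p = 0.0682), after quantile normalization, with an intensity trend and without any single array other than WNT4 2. It was also lost in the fit of WNT4 and GFP arrays alone, which called 0 probe sets. The median of the list was 0.79 in WNT4 minus GFP (0.52 after quantile normalization), against 0.02 over all genes, and 0.33 in Cre minus GFP, against -0.01. Without GFP 2 the Cre median was 0.06. This list was written with earlier results known and gives no independent evidence of a direction.

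Among its members Parm1 stood beside Cebpb, a transcription factor of luteinization (0.99 ± 0.17 in WNT4 minus GFP), Scarb1, the receptor for high-density lipoprotein (1.10 ± 0.24), and Star, which carries cholesterol into mitochondria (2.05 ± 0.50). Of the genes on this list, 15 were higher and 1 was lower in WNT4 minus GFP. The lower one was Hsd17b7 (-0.93 ± 0.36), and Nr5a2, among the higher, lay at 0.03 ± 0.15. Without WNT4 2 the Cebpb difference was 1.11 and was called (limma adjusted p = 0.0399). Star read 10.24, 8.96 and 8.25 with WNT4, 7.75, 8.22 and 7.81 with Cre, and 7.91, 6.45 and 6.94 with GFP. Its spread within the groups was wide, unlike that of Parm1.

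**Figure D5:**
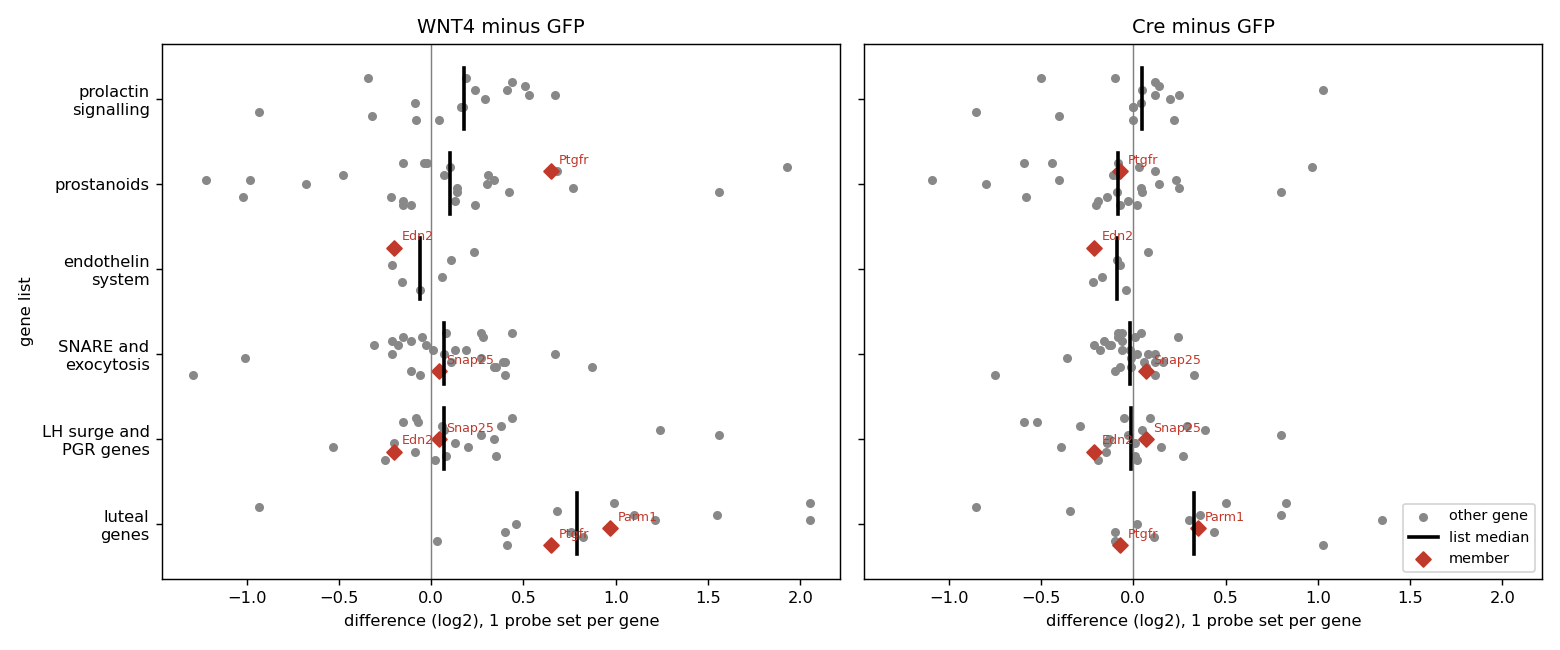
Difference in log2 value (horizontal axis, 1 probe set per gene) for the measured genes of 6 lists in WNT4 minus GFP (left) and Cre minus GFP (right). Diamonds are the members, grey points the other genes and black bars the list medians, which run from -0.06 (endothelin system) to 0.79 (luteal genes) on the left.

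Markers of other cells were read beside Parm1. On WNT4 1, the array with the highest Parm1, oocyte markers stood at 7.74, against 6.56 and 6.38 on WNT4 2 and WNT4 3, and the range was 6.30 to 7.20 with Cre and 6.15 to 6.92 with GFP. Theca and stroma markers stood at 7.56 on WNT4 1 and at 6.62 and 6.94 on the other WNT4 arrays, with 6.75 to 7.0 on Cre and 6.65 to 7.03 on GFP arrays. These markers did not move as one. On WNT4 1, WNT4 2 and WNT4 3, Dcn read 9.50, 6.51 and 6.45 and Lum 7.33, 4.68 and 4.65. On the same arrays Acta2 read 10.81, 11.06 and 12.87 and Col1a1 5.73, 5.86 and 6.25. Without WNT4 1 the Parm1 difference from GFP was 0.88 at 1428891_at and 1.15 at 1424214_at. Leukocyte markers ranged from 6.09 to 7.02 with WNT4, 6.10 to 7.05 with Cre and 6.22 to 6.82 with GFP. Log2 RMA values have no zero, and of these lists 5 of 9 oocyte, 5 of 9 theca and stroma, 8 of 10 leukocyte and 2 of 8 endothelial markers had a mean of at least 6. The part of other cells in the Ptgfr and luteal values was not tested.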

How the data were processed

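RNA from cultured granulosa cells was measured on 9 Affymetrix arrays, 3 per adenovirus, grouped by the sample titles. The deposited log2 values come from RMA (background correction, normalization between arrays, summary over probes), as named without a version per the labels. No scans were used here, so neither the background correction nor detection could be varied or read. After 64 Affymetrix controls were left out, 45037 probe sets remained, of which 34945 had 1 symbol, 932 had several and 9160 had none in the annotation used. Entrez IDs linked symbols to a RefSeq table (GRCm38.p6), which matched 34741, giving 18193 genes.

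limma 3.58.1 (R 4.3.3; lmFit and eBayes, no covariate, two-sided) was fitted to all 9 arrays, with Benjamini-Hochberg adjustment over all probe sets of a comparison and a threshold of 0.05. The procedure was tested on simulated data drawn independently for each probe set and array. Such data hold no deviations shared between probe sets, so the simulation does not cover those of these arrays. The members, the 6 gene lists and the 6 marker lists were chosen with earlier results of these data known. For a listed gene the brightest probe set was used. Named list genes were those called, and up to 4 (WNT4 against GFP) or 3 (Cre against GFP) per list with the smallest p. Genes like a member were the 3 with the highest Pearson correlation among genes with a mean of at least 6.

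Alternatives were quantile normalization, median centring, 75th percentile centring, the replicate number as a block, the arrays of a pair of groups alone, removal of dim probe sets (mean under 6), an intensity trend, and leaving out each array in turn. No label ties equal replicate numbers to 1 animal or day. Deviations of same-numbered arrays from their group means correlated at 0.21, 0.24 and 0.77 between WNT4 and Cre, all above 0.1, and at -0.08, 0.01 and 0.35 between WNT4 and GFP and -0.04, -0.31 and 0.31 between Cre and GFP. By the 0.1 limit alone, equal numbers were taken as pairs between WNT4 and Cre and not elsewhere. This does not establish pairing, since 0.21 and 0.24 lie below the 0.35 and 0.31 found in the comparisons with GFP. Values for WNT4 against Cre come from the fit without a block, except where a block is named. The block was also applied in the comparisons with GFP, where equal numbers were not taken as pairs. No 2 arrays shared more than 4.53% exactly equal values.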

Additional observations from a re-analysis of the deposited data

How the results depend on the processing

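Of 420 recomputed member differences, 407 moved by less than the pooled SD of their probe set. Part of that count was fixed in advance. The replicate block, the intensity trend and leaving out an array of the third group cannot change a difference here. The pooled SD is also a wide limit for Ptgfr. At 1420349_at it was 1.17, so WNT4 minus GFP going from 0.65 to -0.03 without GFP 2 lay under it. For WNT4 against GFP the 7 called probe sets became 3 after quantile normalization, 17 after 75th percentile centring (median of all differences -0.15), 1 with an intensity trend, 15 without dim probe sets and 0 when Cre arrays were left out of the fit (5021 at an unadjusted p under 0.05). Leaving out 1 array gave 0 to 748 calls, the highest without WNT4 2. A replicate block gave 10 calls, with no member called. It could not change the Parm1 difference of 0.97, only its SE and p (limma adjusted p = 0.0601). In WNT4 against Cre, where the numbers were taken to pair samples, the block called 0. For Cre against GFP leaving out 1 array gave 0 to 1 calls. The Parm1 difference from GFP was 0.65 after quantile normalization and 0.82 after 75th percentile centring, and 0.88 to 1.07 without 1 array; the cause was not tested. After quantile normalization 0 of 3 genes nearest Parm1 and 1 of 3 nearest Ptgfr were the same. Edn2 and Snap25 are limited by dim signal. No second background correction was run.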

Other observations

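The pair of arrays on which Ptgfr was lowest, Cre 1 and GFP 2, was also the lowest pair for other genes, a pattern chosen after the values were seen. Of 10556 genes with a mean of at least 6, 14.4% had the same lowest pair. In the luteal list these were Cyp11a1, Hsd3b1, Fdx1, Sfrp4 and Oxtr (5 of 15 genes other than Ptgfr). Oxtr, the oxytocin receptor, another receptor linked to Gq proteins, read 9.87, 9.38 and 7.41 with WNT4, 7.20, 9.04 and 7.34 with Cre, and 9.11, 7.26 and 8.24 with GFP. Cyp11a1, which cleaves the side chain of cholesterol, read 14.48, 13.76 and 13.74 with WNT4, 12.33, 13.65 and 13.26 with Cre, and 13.31, 12.03 and 13.01 with GFP.

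In prolactin signalling the same lowest pair was found for Jak2, Stat5a, Stat5b, Stat3 and Grb2 (5 of 13 genes). Mme, the peptidase neprilysin, which degrades small peptides, was the one such gene of 5 in the endothelin system, at 8.42, 8.70 and 8.61 with WNT4, 7.52, 9.18 and 8.60 with Cre, and 8.84, 7.44 and 8.76 with GFP. The count was 5 of 22 among the prostanoid genes, 3 of 27 among the SNARE genes and 3 of 8 among the genes of the LH surge.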
